A study of Arabidopsis thaliana with 12 samples.

Results

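The 8 genes described here encode the major light-harvesting proteins of photosystem II in Arabidopsis thaliana: LHCB1.1 (AT1G29920), LHCB1.2 (AT1G29910), LHCB1.3 (AT1G29930), LHCB1.4 (AT2G34430), LHCB1.5 (AT2G34420), LHCB2.1 (AT2G05100), LHCB2.2 (AT2G05070) and LHCB2.3 (AT3G27690). They were chosen by gene identifier, 5 LHCB1 and 3 LHCB2 genes, and all 8 were found among the 11417 genes listed in any of 6 pairwise tables. RNA came from seedlings grown for 4 days in the dark on MS medium with 1% sucrose and then kept dark or given 3 h of light. The wild type Col-0 was compared with 35S:miR396a, a transgenic line in the Columbia ecotype that makes the microRNA miR396a from the viral 35S promoter, which is active in most tissues. Each genotype was sequenced as 3 dark and 3 illuminated libraries, which makes 4 groups; how many transgenic lines were used is not stated in the labels.

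LHCB1 and LHCB2 bind chlorophyll a and b and assemble into the trimeric antenna complex LHCII, which collects light for photosystem II and can move toward photosystem I when it is phosphorylated. The proteins are made in the cytosol, imported into the plastid and inserted into the thylakoid membrane together with chlorophyll. In dark-grown seedlings chlorophyll synthesis stops before the light-requiring step, and LHCB genes are textbook examples of genes that light and plastid signals control during greening.

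Every level is the authors' mean FPKM (fragments scaled to transcript length and library size) of a group. It has no SD or n, and no difference could be set against the spread between libraries. A gene is called listed when the authors' deposited table for a pair of groups holds it, which in all 6 tables means a fold beyond 2 and a q-value under 0.001. The deposited p-values follow a model with counting error alone. Solved from them, the depth pooled over the libraries of a group was about 115000000 to 128000000 fragments. The lowest level of any of the 8 genes in a group then stands for about 6929 fragments, with a counting error of 1.20%. Both values are rough, since they come from the FPKM of LHCB1.1 in dark Col-0. For that gene the authors' fold and the FPKM ratio differ, as given below. Tissue was labelled hypocotyl, while the protocol speaks of seedlings. Of 6 root markers 4 were in any table. PYK10, a glucosidase of roots and hypocotyls, was at 3007 and 6636 FPKM in dark and illuminated 35S:miR396a, and the other 3 were at 1.54 FPKM or less. The level of PYK10 in Col-0 is not known, and it was not listed between genotypes in the dark or after light. Of 6 shoot-apex markers 4 were in any table, at 9.996 FPKM or less. Fewer cells that express a gene and less RNA per cell cannot be told apart in such samples.

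The copies are close relatives, which bears on how well reads separate them. LHCB1.1, LHCB1.2 and LHCB1.3 lie within one cluster on chromosome 1 (10474656 to 10475969, 10472280 to 10473502 and 10477885 to 10479114, TAIR10.1), each with 1 exon and a coding sequence of 804 bases. LHCB1.5 and LHCB1.4 are neighbours on chromosome 2 (14522524 to 14523568 and 14524607 to 14525918), on opposite strands 1038 bases apart. LHCB2.2 and LHCB2.1 lie 22517 bases apart on chromosome 2 (1799234 to 1800472 and 1822990 to 1824480), and LHCB2.3 is on chromosome 3 (10255906 to 10257489). Coding identity, with gap columns counted as not identical, ran from 86.7% to 96.4% over the 10 pairs of LHCB1 genes and from 62.6% to 72.8% over the 15 pairs of an LHCB1 with an LHCB2 gene. Over bases aligned without gaps these ranges were 87.0% to 96.4% and 71.7% to 74.9%. LHCB2.1 and LHCB2.2 were 96.6% identical with no gap. LHCB2.3, by its longest annotated transcript, was 76.4% and 75.4% identical to them with its 99 gap columns, and 85.8% and 84.7% without.

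The 60 coding bases in which the chromosome 1 copies differ most are shown because they are the kind of stretch by which reads are told apart. They are coding bases 25 to 84, from RefSeq's TAIR10.1 genome, on the coding strand at chr1:10475809-10475868 (LHCB1.1, minus), chr1:10473163-10473222 (LHCB1.2, minus) and chr1:10478095-10478154 (LHCB1.3, plus). Capitals mark the 8 columns that are not the same in all of the copies.
LHCB1.1: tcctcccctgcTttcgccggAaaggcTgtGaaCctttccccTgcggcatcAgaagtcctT
LHCB1.2: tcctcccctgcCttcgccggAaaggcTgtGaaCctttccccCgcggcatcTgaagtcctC
LHCB1.3: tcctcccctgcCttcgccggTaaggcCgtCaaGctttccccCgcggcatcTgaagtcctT
Over the whole coding sequence 47 of 804 columns differ among these copies, and the longest run that LHCB1.1 shares with LHCB1.3 is 119 bases. Of all windows of 100 bases in the transcript, 95.6% for LHCB1.1, 98.5% for LHCB1.2 and 96.7% for LHCB1.3 occurred in no other annotated transcript on the same strand. At 50 bases the shares were 79.5%, 89.4% and 83.0%. LHCB1.4 and LHCB1.5 had 96.7% and 95.8% of windows of 100 bases to themselves, LHCB2.1 and LHCB2.2 had 90.1% and 87.6%, and LHCB2.3 shared none. The labels state neither read length nor strand. An annotated antisense RNA, AT2G08665, spans all 1045 bases of LHCB1.5, and protein-coding genes on the opposite strand overlap LHCB1.3 by 108 bases, LHCB1.5 by 99 and LHCB2.3 by 595. None of these 4 overlapping genes was in any table, so no level stands beside the affected genes, and the effect of shared or antisense reads was not tested.

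Light in wild-type seedlings came first. In Col-0, light put 7 of the 8 genes on the authors' list as higher, the exception being LHCB1.3, and none as lower; of all 11417 genes 17.0% were listed higher and 26.1% lower. All 7 also passed 4-fold, against 5.84% of all genes. The median log2 ratio of the 8 genes was 3.97 on the log2(FPKM + 1) scale, and −0.11 for 7778 genes with both values.

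LHCB1.1, also known as CAB2 and long used as a reporter promoter for light and clock control, stood lowest of the 8 genes in dark Col-0 at 45.9 FPKM and reached 3303 FPKM in the light, an FPKM ratio of 72.0. The fold in the authors' deposited table was larger, 126, and this gene alone of the 8 has such a gap. LHCB1.4 went from 119 to 2983 FPKM (ratio 25.1) and LHCB1.2, also known as CAB3, from 302 to 4929 (ratio 16.3). Both were thus at least an order of magnitude higher in the illuminated group. LHCB1.5 started from 1556 FPKM and was at 7113 in the light, a ratio of 4.57.

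The LHCB2 genes encode the form of LHCII whose phosphorylation is needed for docking to photosystem I. LHCB2.2 went from 83.3 to 2121 FPKM (ratio 25.5), LHCB2.1 from 149 to 2256 (ratio 15.1) and LHCB2.3 from 60.3 to 855 (ratio 14.2). The LHCB2 genes thus lay between 14.2 and 25.5 in ratio, a narrower span than that of the LHCB1 genes.

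LHCB1.3, also known as CAB1, departed from the rest. It was at 11174 FPKM in dark Col-0 and 12745 in illuminated Col-0, a ratio of 1.14, and was not listed. In both groups it had the highest FPKM of all genes with a known value, 8766 genes in the dark and 10079 in the light. Its level in dark Col-0 was 244 times that of LHCB1.1 and 7.18 times that of LHCB1.5, and in the light 3.86 and 1.79 times.

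**Figure D1:**
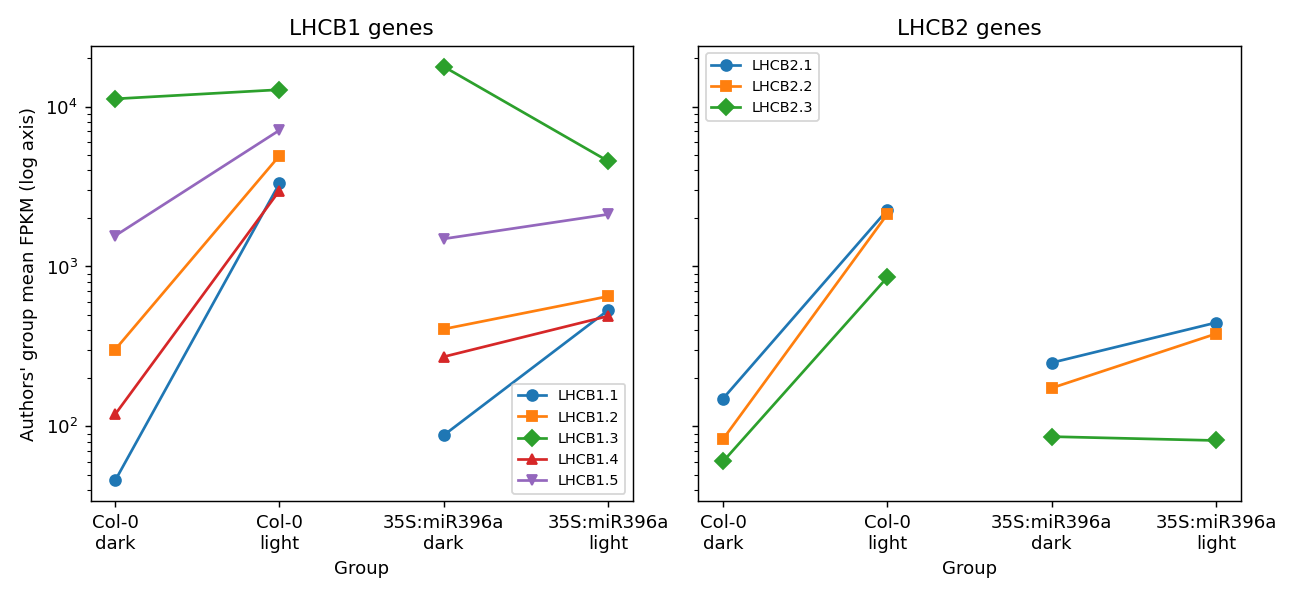
The authors' group mean FPKM of each LHCB1 gene (left) and LHCB2 gene (right) on a log axis, for the 4 groups; lines join dark and light of one genotype and no error can be drawn. LHCB1.3 sits at 11174 and 12745 FPKM in Col-0 while LHCB1.1 goes from 45.9 to 3303, and most lines are flatter in 35S:miR396a.

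The start-proximal sequence of LHCB1.1 and LHCB1.3 is shown because these neighbours, 1915 bases apart, had the largest and the smallest light ratio in Col-0; LHCB2.3 is shown as the LHCB2 gene whose level was not higher after light in 35S:miR396a. Each run is the 250 bases before the annotated transcript start, 5′ to 3′ on the gene's strand, from RefSeq's TAIR10.1 genome: chr1:10475970-10476219 (minus), chr1:10477635-10477884 (plus) and chr3:10255656-10255905 (plus). Capitals mark matches to any of 4 motifs searched on both strands: CACGTG, known as the G-box, GATAAG, known as the I-box, and the TATA box with the letters TATAAA. The remaining motif, AAAATCT, lies within a binding site of CCA1, a clock transcription factor.
LHCB1.1: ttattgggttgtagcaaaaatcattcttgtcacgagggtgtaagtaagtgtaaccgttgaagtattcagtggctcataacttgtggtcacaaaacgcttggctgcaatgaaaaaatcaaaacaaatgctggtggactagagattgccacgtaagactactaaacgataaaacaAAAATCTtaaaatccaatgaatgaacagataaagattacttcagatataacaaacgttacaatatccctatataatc
LHCB1.3: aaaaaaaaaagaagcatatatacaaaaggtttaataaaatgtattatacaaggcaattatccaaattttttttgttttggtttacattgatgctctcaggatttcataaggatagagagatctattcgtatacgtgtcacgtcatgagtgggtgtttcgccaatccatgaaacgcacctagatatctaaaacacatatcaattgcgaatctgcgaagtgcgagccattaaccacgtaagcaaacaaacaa
LHCB2.3: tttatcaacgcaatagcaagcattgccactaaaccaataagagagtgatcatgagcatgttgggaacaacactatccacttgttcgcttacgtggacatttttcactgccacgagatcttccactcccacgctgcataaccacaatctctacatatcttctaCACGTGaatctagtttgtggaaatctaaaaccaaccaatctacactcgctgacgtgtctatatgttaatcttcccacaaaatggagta
AAAATCT lay 77 bases before the start in LHCB1.1 and was also found in LHCB1.4 and LHCB1.5, 3 of the 8 genes, against 16.5% of 27443 promoters of the same length. CACGTG was found in LHCB2.3, 88 bases before the start, and in no other of the 8 genes (6.49% of all promoters). GATAAG was found in LHCB2.1 (12.3%) and TATAAA in LHCB1.5 (47.3%). None of these letters was in the window of LHCB1.3, LHCB1.2 or LHCB2.2. The annotated start lies farther from the coding sequence in LHCB1.3 and LHCB1.2 than in LHCB1.1, so the windows are not placed alike. Bases between the annotated start and the coding sequence were not searched, and a motif missing from a window may lie there or farther upstream. No match of one motif overlapped that of another, and a match describes the letters in this window only.

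Summed over copies, LHCB1 had a smaller light ratio than 4 of its 5 genes, all but LHCB1.3. Summed LHCB1 was 13197 FPKM in dark Col-0 and 31073 in illuminated Col-0, a ratio of 2.35. Without LHCB1.3 the sum of the other 4 genes went from 2023 to 18328, a ratio of 9.06. Summed LHCB2 went from 293 to 5233 FPKM, a ratio of 17.9. LHCB1.3 alone made up 82.8% of the FPKM of the 8 genes in dark Col-0 and 35.1% in the light, while LHCB1.1 went from 0.340% to 9.10%. Summed LHCB1 was 45.1 times summed LHCB2 in dark Col-0 and 5.94 times in illuminated Col-0; without LHCB1.3 the quotients were 6.91 and 3.50.

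**Figure D2:**
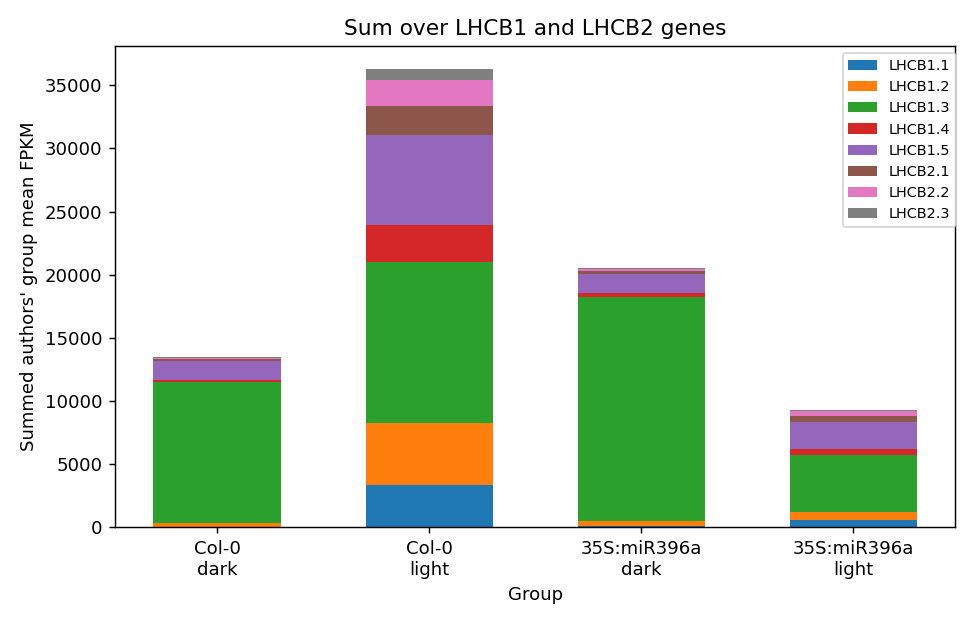
Summed authors' group mean FPKM of the 8 genes (linear axis from 0), one stacked bar per group with a colour for each gene. From left to right the sums are 13490.3, 36306, 20533 and 9255 FPKM, and LHCB1.3 is the largest piece of every bar.

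The same light treatment was then followed in 35S:miR396a. There, 2 of the 8 genes were listed higher after light (LHCB1.1 and LHCB2.2), 1 was listed lower (LHCB1.3) and 5 were not listed; of all genes 20.6% were listed higher and 23.1% lower. At 4-fold 1 gene, LHCB1.1, remained listed higher, against 9.17% of all genes. The shares of higher and of lower calls among the 8 genes are thus not far from those of all genes. The median log2 ratio of the 8 genes was 0.75 on the log2(FPKM + 1) scale, against −0.05 for 7756 genes.

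LHCB1.1 again had the largest FPKM ratio of the 8 genes, going from 88.0 to 532 FPKM (ratio 6.04), although the fold in the authors' deposited table was 9.64. LHCB2.2 went from 174 to 379 (ratio 2.18). LHCB1.3 went the other way, from 17768 FPKM in the dark, the highest of 8783 genes with a known value, to 4561 in the light, a level 3.90 times lower. No other of the 8 genes was listed lower.

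Among the genes not listed, LHCB1.4 was at 273 and 489 FPKM, LHCB1.2 at 406 and 650.1, LHCB1.5 at 1489 and 2118, and LHCB2.1 at 249.98 and 445 in dark and light. Their FPKM ratios ran from 1.42 to 1.79. LHCB2.3 was at 86.3 FPKM in the dark and 81.6 in the light, a ratio of 0.946.

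Summed LHCB1 in 35S:miR396a was 20023 FPKM in the dark and 8349 in the light, 2.40 times lower. The direction rests on LHCB1.3, since the other 4 LHCB1 genes together were at 2255 FPKM in the dark and 3789 in the light, 1.68 times higher. Summed LHCB2 was at 510 FPKM in the dark and 906 in the light, a ratio of 1.78. LHCB1.3 held 86.5% of the FPKM of the 8 genes in dark 35S:miR396a and 49.3% in the light.

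**Figure D3:**
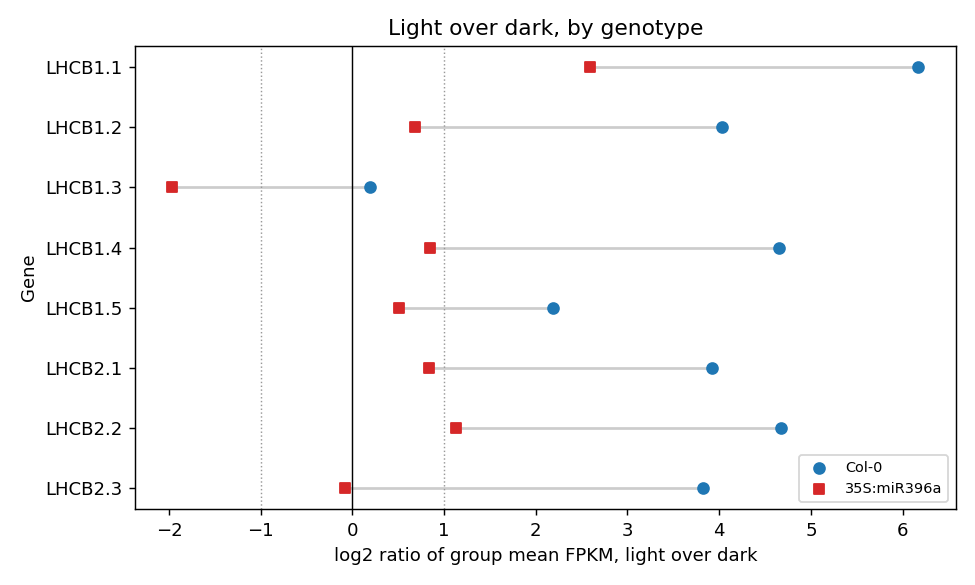
Log2 ratio of group mean FPKM, light over dark, for each gene, with circles for Col-0 and squares for 35S:miR396a; dotted lines mark 2-fold. Every square lies left of its circle, from LHCB1.1 (6.17 and 2.59) to LHCB1.3 (0.19 and −1.96).

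The light tables of the genotypes share no libraries, so the light responses can be subtracted. Subtracting the log2 FPKM ratio of Col-0 (light over dark) from that of 35S:miR396a gave values below 0 for all 8 genes and ran from −3.91 for LHCB2.3 and −3.80 for LHCB1.4 to −2.15 for LHCB1.3 and −1.68 for LHCB1.5. On the log2(FPKM + 1) scale the median of the 8 was −3.44, against 0.12 for the 6223 genes with values in all 4 groups, of which 45.7% lay below 0 and 22.8% below −1. For the sums the difference was −2.50 for LHCB1 and −3.33 for LHCB2. No test of this difference was possible from group means.

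In the dark, the FPKM ratios of 35S:miR396a over Col-0 ran from 0.957 to 2.29 over the 8 genes. LHCB1.1, LHCB1.4 and LHCB2.2, 3 of the 8 genes, were on the list as higher in the overexpressor, and none as lower; of all genes 8.74% were listed higher and 10.6% lower. For LHCB1.4 the dark levels were 119 FPKM in Col-0 and 273 in the overexpressor (ratio 2.29), and LHCB2.2 at 83.3 and 174 (ratio 2.09). LHCB1.1 was at 45.9 and 88.0, an FPKM ratio of 1.92 that is under 2-fold, although the fold in the authors' deposited table was 2.10.

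The 5 genes not listed in the dark had FPKM ratios from 0.957 to 1.67. LHCB1.5 was at 1556 FPKM in Col-0 and 1489 in 35S:miR396a, and LHCB1.3 at 11174 and 17768, a ratio of 1.59. LHCB2.1 was at 149 and 249.98 FPKM (ratio 1.67), LHCB1.2 at 302 and 406 (ratio 1.34) and LHCB2.3 at 60.3 and 86.3 (ratio 1.43). Summed LHCB1 was 1.52 times higher in dark 35S:miR396a and summed LHCB2 1.74 times. Without LHCB1.3 the LHCB1 ratio was 1.11. The order of levels was LHCB1.3, LHCB1.5 and LHCB1.2 from the top in all 4 groups, and whether neighbours in the order differ beyond the spread between libraries was not testable.

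After light the genotypes stood apart at every one of the 8 genes. All 8 were listed lower in the illuminated overexpressor and 6 of them passed 4-fold (all but LHCB1.3 and LHCB1.5); of all genes 25.9% were listed lower at 2-fold, 8.72% lower at 4-fold and 35.5% higher. On the log2(FPKM + 1) scale the median ratio was −2.54 for the 8 genes and 0.19 for the 8798 genes with both values. The Col-0 dark group enters both the light comparison in Col-0 and the dark genotype comparison, and likewise for the other groups, so the 4 comparisons are not independent. Seed-reserve markers differed between genotypes too: all 4 were listed higher in 35S:miR396a in the dark and again after light, with summed levels of 3.01 FPKM in dark Col-0, 11.4 in illuminated Col-0, 28.9 in dark and 75.3 in illuminated 35S:miR396a. Among shoot-apex markers CUC1, CUC2 and CLV3 were listed higher in the dark overexpressor and CLV3 after light, all below 1 FPKM, and the root marker WOX5 was listed higher after light, at 0.42 and 1.18 FPKM. With light, CRC, CRA1, SESA3, CUC1 and CUC2 were listed higher and RHD6 lower in Col-0, and SESA3, OLEO1 and PYK10 higher in 35S:miR396a. The part of these markers in the LHCB results was not tested.

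LHCB2.3 was furthest apart: from 855 FPKM in Col-0 it was 10.5 times lower in the overexpressor, at 81.6. LHCB1.2 was 7.58 times lower, at 4929 and 650.1 FPKM, and LHCB1.1 6.21 times lower, at 3303 and 532. LHCB1.4, LHCB2.2 and LHCB2.1 were 6.10, 5.60 and 5.07 times lower.

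LHCB1.3 and LHCB1.5, the highest of the 8 genes in both illuminated groups, were the least apart. The order did not follow level throughout, since LHCB1.2, next in level, was 7.58 times lower. LHCB2.3, the lowest of the 8 genes in both illuminated groups, was furthest apart, and a trend with level was not tested. LHCB1.5, at 7113 FPKM in Col-0, was 3.36 times lower in the overexpressor, at 2118. LHCB1.3 was at 12745 and 4561 FPKM, 2.79 times lower. Summed LHCB1 was 3.72 times lower and summed LHCB2 5.78 times lower, a direction that was given once each of their genes was lower.

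**Figure D4:**
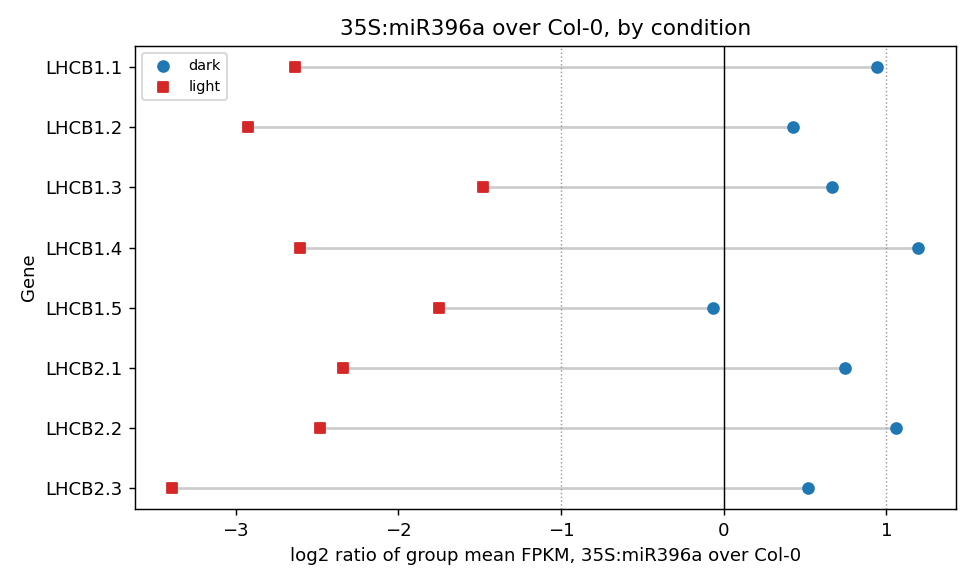
Log2 ratio of group mean FPKM, 35S:miR396a over Col-0, for each gene in the dark (circles) and after light (squares); dotted lines mark 2-fold. Circles lie between −0.06 (LHCB1.5) and 1.20 (LHCB1.4), squares between −3.39 (LHCB2.3) and −1.48 (LHCB1.3).

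The fold in the authors' deposited tables and the ratio of the deposited FPKM means differed for one of the 8 genes. For LHCB1.1 the deposited log2 fold of light over dark was 6.98 in Col-0 and 3.27 in 35S:miR396a, above the FPKM ratios by 0.81 and 0.67. Between the illuminated groups the 2 measures of LHCB1.1 were within 0.01, and between the dark groups the deposited fold was higher by 0.13. The difference was thus largest where a dark group stood against an illuminated group. An offset shared by both illuminated groups would cancel between them, so these ratios cannot tell which values of LHCB1.1 it lies with. For the other 7 genes the difference between the 2 measures was at most 0.03 in any table. Over all genes above 5 FPKM in both groups, 1 or 2 genes per table differed by over 1.5 times, among 581 to 2865 genes. LHCB1.1 was itself in this tally. It was the only such gene for light over dark in Col-0, for light over dark in 35S:miR396a, and for illuminated 35S:miR396a over dark Col-0. For the genes not listed in a comparison, adding their deposited folds against another group gave log2 folds of 0.20 for LHCB1.3 after light in Col-0 and −0.08 for LHCB2.3 after light in 35S:miR396a, each within 0.01 of the FPKM ratio.

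The other light-harvesting genes were set beside these 8 from a list of 14: the remaining photosystem II antenna LHCB3 to LHCB7, the photosystem I antenna LHCA1 to LHCA6, and PSBS, which triggers dissipation of excess light. In Col-0 12 of the 14 were listed higher after light and none lower, and their median log2 FPKM ratio was 2.18 (0.45 to 4.40 over 13 genes with both values). In 35S:miR396a 3 were listed higher (LHCB7, LHCA1 and LHCA5) and 2 lower (LHCB4.2 and LHCA2), with a median of 0.19. In the dark none of the 14 was listed between genotypes, and after light 13 were listed lower in 35S:miR396a, all but LHCB7, with a median of −2.34.

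The LHCB1 and LHCB2 genes had medians of 3.97, 0.76, 0.71 and −2.55 in the same order of comparisons. Of their log2 light ratios in Col-0, 3 were above all 13 others, LHCB1.1 (6.17), LHCB2.2 (4.67) and LHCB1.4 (4.65), 1 was below, LHCB1.3 (0.19), and 4 lay within their range. LHCB3, which joins LHCB1 and LHCB2 in LHCII, was at 405 and 3213 FPKM in dark and illuminated Col-0 and at 383 and 563 in 35S:miR396a. LHCB4.2, a minor antenna protein, came closest to LHCB1.3, with 1055 FPKM in the dark and 1445 in the light for Col-0, against 893 and 344 for 35S:miR396a. LHCA1, at 142 and 2997 FPKM and at 181 and 470.1, lay among the steep LHCB genes.

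**Figure D5:**
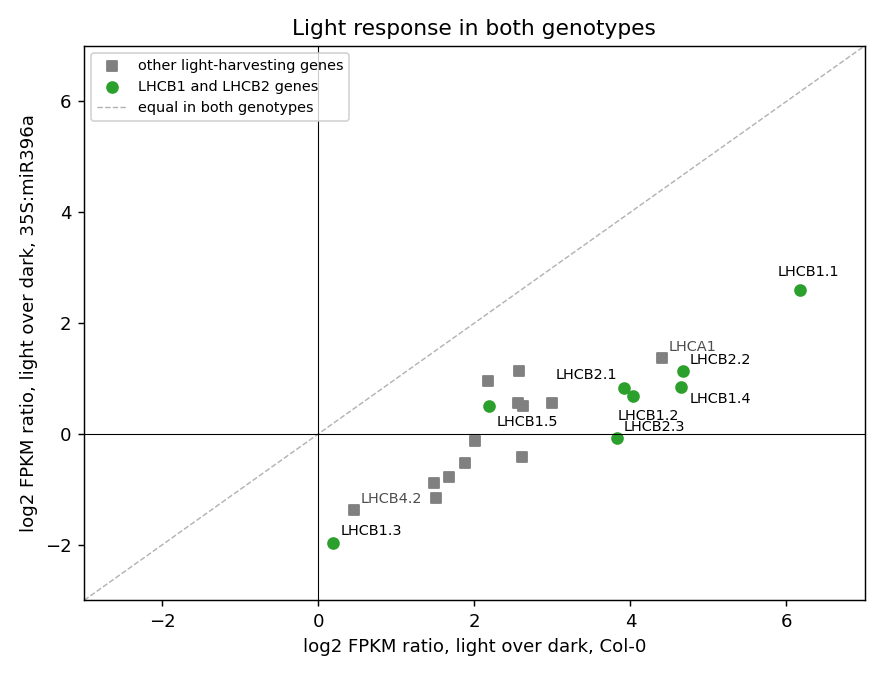
Log2 FPKM ratio of light over dark in Col-0 (horizontal) and 35S:miR396a (vertical) for the LHCB1 and LHCB2 genes (circles) and 13 other light-harvesting genes (squares). All points lie below the dashed line of equal response, with LHCB1.3 at the lower left (0.19 and −1.96) and LHCB1.1 at the right (6.17 and 2.59).

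Genes that serve the LHCII proteins were counted in the same way. Delivery of LHCB proteins to the thylakoid needs cpSRP43 and cpSRP54 (the plastid signal recognition particle), its receptor cpFTSY, the insertase ALB3 and the sorting factor LTD. In Col-0 2 of these 5, cpSRP43 and LTD, were listed higher after light and none lower, in 35S:miR396a 2, cpSRP54 and ALB3, were listed lower and none higher, in the dark none was listed between genotypes, and after light all 5 were listed lower in 35S:miR396a. cpSRP43, which binds LHCB proteins directly, was at 58.0 FPKM in dark and 199.9 in illuminated Col-0, and at 62.3 and 55.5 in 35S:miR396a.

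Of the 4 genes of the chlorophyll b cycle, CAO, which makes chlorophyll b, and NYC1, which turns it back toward chlorophyll a, were listed higher after light in Col-0. HCAR, the next reductase after NYC1, was listed lower after light in 35S:miR396a, and CAO, NYC1 and HCAR were listed lower there than in Col-0 after light; NOL was in no table. CAO was at 36.1 and 146 FPKM in dark and illuminated Col-0 and at 24.2 and 29.6 in 35S:miR396a. STN7, the kinase of LHCII, was listed higher after light in both genotypes (6.43 to 31.2 FPKM in Col-0, 5.05 to 11.8 in 35S:miR396a) and lower in the illuminated overexpressor. The phosphatase TAP38 was not listed in these 4 comparisons.

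Known regulators of LHCB genes were listed in both directions. Of 13 on the list, 3 were listed higher after light in Col-0 (HYH, GUN1 and CGA1) and 5 lower (GLK2, HY5, PIF3, CCA1 and LHY). In 35S:miR396a 2 were listed higher after light (HY5 and HYH) and 4 lower (GLK1, GNC, PIF3 and LHY). In the dark GLK2, HY5 and HYH, 3 of the 13, were listed lower in the overexpressor and none higher.

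After light 5 regulators were listed lower in 35S:miR396a (GLK1, GUN1, GNC, CGA1 and PIF5) and 2 higher (HY5 and CCA1); PIF1 and PIF4 were in no table. GLK1, a transcription factor that activates LHCB genes, went from 18.4 to 22.9 FPKM with light in Col-0 and from 28.7 to 6.49 in the overexpressor. HY5, a light-signalling factor, was at 60.003 and 19.4 FPKM in dark and illuminated Col-0 and at 16.9 and 39.5 in 35S:miR396a. Of the 4 groups, GLK1 was thus lowest in the illuminated overexpressor, and HY5 was lower after light in one genotype and higher in the other.

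The 5 genes most like the mean pattern of the 8 were sought among 3102 genes with values in all 4 groups and at least 10 FPKM in one, by Euclidean distance of log2(FPKM + 1) centred on each gene's mean over the groups. They were GAPA-2, a subunit of the plastid glyceraldehyde-3-phosphate dehydrogenase (distance 0.27), ACP4, an acyl carrier protein of fatty acid synthesis (0.33), AT1G21500 (0.33), RPP4, a disease-resistance gene (0.34), and AT1G65490 (0.37). GAPA-2 was at 160.2 and 1676 FPKM in dark and illuminated Col-0 and at 209 and 305 in 35S:miR396a. RPP4 and AT1G65490 were below 1 FPKM in both dark groups. In Col-0 they went from 0.296 to 11.3 and from 0.04 to 10.2 FPKM with light. At such dark levels the added 1 FPKM shrinks the log2 ratio, and their likeness was not examined without it.

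Among the 8 genes themselves, LHCB2.1 was nearest to the mean pattern (distance 0.26) and LHCB1.3 (3.09) and LHCB1.1 (2.24) were farthest. The most alike pair was LHCB1.4 and LHCB2.2, from different families, at 0.20. LHCB1.1 and LHCB1.3, at 96.1% coding identity, were the most unlike pair, at 5.31.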

How the data were processed

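RNA from 12 libraries (4 groups of 3) was sequenced on the BGISEQ-500 platform, per the labels' protocols. Per the submitters' processing notes, HISAT and Bowtie2 (no versions stated) mapped the reads, and the genome build was TAIR10. The authors deposited 6 pairwise tables of called genes. Per the file headers, each holds FPKM averaged over a group, a log2 fold change, and a DEGseq q-value and p-value; the design text names NOISeq instead. The 8 genes and all gene lists were chosen with earlier results of these data known. Because only group means are given, the planned fits on single libraries could not be made: no model was fitted, and the authors' calls were counted. A group's FPKM was taken from any table that lists the gene; 0 genes had conflicting values. Uncalled genes are in no table, so shares are of the 11417 genes listed in any table.

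Ratios and sums of FPKM were computed with Python 3.11.15, pandas 2.3.3 and numpy 2.4.6, with no pseudocount unless "log2(FPKM + 1)" is written. Pooled depth was solved from deposited folds and p-values with scipy 1.17.1 under DEGseq's random-sampling model, over 284 to 601 genes per table with 1 transcript of at least 1500 bases. One depth per group met the medians of all 6 tables within 0.0271%. The procedure was also run on data simulated under the same model, which checks its arithmetic and not the model. Under that model the deposited p-values carry counting error only, and the labelled biological replicates do not enter them. Depth is given as a single value for each group, with no interval. Sequences and positions are from RefSeq's TAIR10.1; the files name TAIR10 and hold no coordinates. All 8 identifiers matched. Coding sequences of the longest transcripts were aligned with Biopython 1.88. Named genes are the 8 genes, the fixed lists, and the 5 nearest in pattern. Alternatives were a 4-fold threshold, FPKM ratios, a stricter q-value, a pseudocount, medians over genes, length weights, leaving out the highest gene, and deposited folds.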

Additional observations from a re-analysis of the deposited data

How the results depend on the processing

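Counts of listed genes were recomputed at 4-fold, from FPKM ratios and at a q-value under 1e-10, and family sums in 6 other ways. Of 82 recomputed values, 67 kept their direction and stayed within 1.5 times of the reported value, the limit used because the spread between libraries is unknown. Part of this tally was fixed in advance. The DEGseq q-values of the 8 genes are all given as 0, so the stricter q-value could change no count. A count of 0 at 2-fold must stay 0 at 4-fold. A pseudocount of 1 FPKM is small beside family sums of 293 FPKM or more. The tally is therefore no measure of how stable the results are. At 4-fold, genes listed after light in 35S:miR396a numbered 1 higher and 0 lower, and genes higher in dark 35S:miR396a numbered 0. The log2 ratio of summed LHCB1 after light in Col-0 (1.24 as reported) was 4.03 as a median over single genes and 3.18 without LHCB1.3. It was 4.47 as the mean of deposited folds (4 listed genes, LHCB1.3 not among them). As the median of deposited folds, with unlisted genes chained through another group, it was 4.04, a choice made after seeing the data. After light in 35S:miR396a, −1.26 became 0.68, 0.75, 0.65 and 0.69 in the same order, which turns its direction; the 0.65 averages only 2 listed genes, LHCB1.1 (3.27, the fold that differs from its FPKM ratio) and LHCB1.3 (−1.96). Leaving out LHCB1.3 alone turned it; for the other alternatives the cause was not tested. Between genotypes in the light, −1.90 became −2.61 both as the median over genes and as the median of deposited folds. All 5 LHCB1 genes were listed there, so no fold was chained, and these folds lie close to the FPKM ratios. The difference of the light effect for LHCB1, −2.50, became −3.35 both as the median over genes and with chained folds for unlisted genes. The LHCB2 sums stayed within 1.5 times under every alternative run. Their mean of deposited folds rested on 1 listed gene, LHCB2.2, after light in 35S:miR396a and between genotypes in the dark. No paired analysis was possible because the tables hold group averages, and leaving out a replicate could not be run for the same reason. Genes missing from a table have no deposited fold there, and depth does not limit these 8 genes, but the unknown spread between libraries does.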
